A study of Homo sapiens with 12 samples.

Results

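The E2F family and its DP partners were followed here as transcripts: E2F1 to E2F8, TFDP1 and TFDP2, which make up 10 of the 25369 genes listed in the count data. They were taken by gene symbol, a rule that uses no measured value, and all 10 passed the filter on low counts that left 16625 genes for testing. E2F proteins bind DNA at the promoters of genes for DNA replication and the cell cycle. E2F1 to E2F6 do so paired with a DP protein, whereas E2F7 and E2F8 bind without one. E2F1, E2F2 and E2F3 are textbook activators, held in check by the retinoblastoma protein until cyclin-dependent kinases release them. E2F4 and E2F5 work mainly as repressors with the related pocket proteins, E2F6 represses without any pocket protein, and E2F7 and E2F8 are atypical repressors that are themselves known E2F targets.

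RNA-seq was made from U2OS cells, a human osteosarcoma line, carrying a Tet-On system in which doxycycline turns on a stably integrated construct. The pTRE line carried the empty vector, the WT line wild-type E2F1 with an HA tag, the R109K line the same protein with lysine in place of R109, and the KK line the protein with lysine in place of both R111 and R113. Each line gave 3 samples, described as biological replicates, and all 12 samples, pTRE included, received 1 µg/ml doxycycline for 24 hours and were grown under G418 and hygromycin selection. Whether a line was 1 clone or a pool was not given in the sources used here, and as each construct was carried by 1 line, an effect of the line and an effect of the construct cannot be told apart. The comparisons ask which E2F and DP transcripts differ when an E2F1 protein is induced, and whether the arginine substitutions, made at sites of arginine methylation, alter that.

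The substituted arginines lie close together in the E2F1 protein, as the reference sequence of exon 2 of the 7 exons of E2F1 shows. It is given for GRCh37, chr20:32268132-32268222, on the minus strand, with the codons of R109 (CGG), R111 (AGA) and R113 (CGC) in capitals, from left to right.

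E2F1 exon 2: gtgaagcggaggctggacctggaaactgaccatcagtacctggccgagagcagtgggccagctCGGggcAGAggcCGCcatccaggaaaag

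The codon of R109 occupies 32268157 to 32268159, that of R111 32268151 to 32268153 and that of R113 32268145 to 32268147. A count of reads per gene does not separate the codons, so the counts of E2F1 take in the cells' own transcript and that of the construct together.

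Promoter sequence is shown for 4 members, as E2F genes are themselves known to carry E2F sites. These 4 were picked with the members' levels known. RefSeq windows on GRCh38.p14, running from 250 bases before to 50 bases after a start of transcription, were found for 8 of the 10 members, those other than E2F5 and E2F8. They were searched on both strands for the 4 spellings TTTCCCGC, TTTCGCGC, TTTGCCGC and TTTGGCGC, which do not overlap one another in the matches found. Of the 8 members, 4 had a match in at least 1 window, against 3.99% of the 27305 symbols in the RefSeq table, and 3.31% of its 35116 windows held one. The 150 bases before the start are printed 5′ to 3′ on the gene's strand for E2F1 (chr20:33686386-33686535, minus), E2F2 (chr1:23531234-23531383, minus), E2F7 (chr12:77065570-77065719, minus) and TFDP1 (chr13:113584603-113584752, plus), with each match in capitals.

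E2F1: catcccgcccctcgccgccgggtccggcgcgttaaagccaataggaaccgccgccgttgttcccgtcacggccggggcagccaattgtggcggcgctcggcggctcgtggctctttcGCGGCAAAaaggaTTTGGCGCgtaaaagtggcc
E2F2: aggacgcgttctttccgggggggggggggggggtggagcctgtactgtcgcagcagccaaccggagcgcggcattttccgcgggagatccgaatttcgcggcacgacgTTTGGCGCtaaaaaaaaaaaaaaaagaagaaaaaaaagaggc
E2F7: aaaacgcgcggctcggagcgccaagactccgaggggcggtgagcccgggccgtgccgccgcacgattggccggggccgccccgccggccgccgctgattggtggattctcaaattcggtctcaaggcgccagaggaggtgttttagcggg
TFDP1: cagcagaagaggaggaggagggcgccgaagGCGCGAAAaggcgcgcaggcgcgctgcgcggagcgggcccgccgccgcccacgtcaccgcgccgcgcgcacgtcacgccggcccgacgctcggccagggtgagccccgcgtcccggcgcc

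E2F1 had matches with the first base at -33 and -20 from the start, E2F2 at -42 and TFDP1 at -120. E2F3 had 1 match, at -53, in the first of its windows, and E2F4, E2F6, E2F7 and TFDP2 had none. These are matches of letters and say nothing on whether a factor was bound, and a link between matches and levels was not tested.

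Between 11500537 and 31040903 reads were counted on genes. The sample WT replicate 2 stood apart, with the fewest and with 58.7% of its reads outside genes, whereas the other 11 samples had at least 21366887 reads on genes and 23.6% to 29.6% outside them. Levels are given as CPM, the usual depth-scaled counts, here after TMM normalization, and differences as log2 fold changes with their standard errors from edgeR's quasi-likelihood test in 1 model of all 12 samples. A transcript is called where its p-value, adjusted over all 16625 genes by the Benjamini-Hochberg method, is under 0.01. Of the markers of bone cells and osteosarcoma, COL1A1 and SPARC gave most of the reads, RUNX2 lay between 7.77 and 18.7 CPM, and SP7, BGLAP and COL1A2 were at or near 0. The summed level of the 8 markers was 4694 to 5893 CPM in pTRE. It was 1024 to 1397 CPM in the WT samples, 1595 to 1745 in the R109K samples and 1267 to 1505 in the KK samples. The sum of 5 epithelial markers, mostly KRT8 and KRT18 with KRT19 at or near 0, was 744 to 918 CPM in pTRE and 364 to 659 in the samples of the other lines, and that of 5 leukocyte, endothelial and liver markers was below 1 CPM in every sample. The pTRE line therefore differed from the 3 E2F1 lines in these marker sums as well as in the members, and the part of this in the members' values was not tested. As the RNA was from whole cultures, fewer cells expressing a transcript and less of it per cell cannot be told apart.

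Against pTRE, 4 members were called higher in each of the 3 E2F1 lines, and they were E2F1, E2F2, E2F7 and E2F8 each time. The call of E2F1 was set by the design, as the constructs carry it. Of the members called higher, only E2F2, E2F7 and E2F8 can be set beside the shares over all genes. E2F5 was called lower in each line. The other 5 members, E2F3, E2F4, E2F6, TFDP1 and TFDP2, were not called. Over all genes tested, 26.2% were called in WT against pTRE, 14.8% higher and 11.4% lower. In R109K 17.3% were called, 10% higher and 7.23% lower, and in KK 24.4%, 13.8% higher and 10.7% lower. The members' median log2 fold change was 0.22 in WT, 0.19 in R109K and 0.19 in KK, beside medians from -0.01 to 0.00 over all genes tested. Without E2F1, whose counts include the construct, the median of the other 9 was 0.08 in WT, -0.03 in R109K and 0.09 in KK. All 3 comparisons use the same 3 pTRE samples, so their results are not independent of each other, and each line's values are given on their own.

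E2F1, the founding activator and the gene carried by the constructs, was at 89.2, 82.9 and 101 CPM in the 3 pTRE samples. It was at 2315, 1650.2 and 1469 CPM in WT, at 1283, 1259.8 and 932 in R109K and at 1359.6, 1478 and 1112 in KK. The lowest sample of an E2F1 line, at 932 CPM, lay far above the highest pTRE sample, at 101, and WT replicate 1 was the highest of all. Over pTRE, E2F1 rose in WT by a log2 fold change of 4.31 ± 0.20, where the error is the standard error here and for each fold change that follows (adjusted p = 3.62e-09). It rose by 3.67 ± 0.20 in R109K (adjusted p = 1.52e-08) and by 3.85 ± 0.20 in KK (adjusted p = 4.75e-09). In all 12 samples the level of E2F1 followed the label as pTRE or as an E2F1 line. It does not check which of WT, R109K and KK a sample was.

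E2F2, a second activator of the same group, stood at 60.6, 61.7 and 64.5 CPM in pTRE and at 107, 115 and 94.4 in WT. In R109K it was at 99.2, 88.1 and 98.4 CPM and in KK at 98.0, 89.7 and 93.5. All 9 samples of the E2F1 lines lay above all 3 pTRE samples, and the ranges of the 3 E2F1 lines overlapped. E2F2 rose by a log2 fold change of 0.76 ± 0.11 in WT (adjusted p = 5.23e-05), 0.61 ± 0.11 in R109K (adjusted p = 5.10e-04) and 0.59 ± 0.11 in KK (adjusted p = 4.78e-04), all below 2-fold.

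E2F3, the remaining activator, did not share this. It was at 47.6, 47.0 and 40.0 CPM in pTRE, 41.6, 41.3 and 37.5 in WT, 39.5, 38.8 and 36.9 in R109K, and 40.7, 31.4 and 40.1 in KK. The 3 R109K samples lay below the 3 pTRE samples, and the WT and KK samples overlapped with them. Its log2 fold change was -0.16 in WT (95% interval -0.42 to 0.09, adjusted p = 0.296), -0.22 in R109K (-0.48 to 0.03, adjusted p = 0.185) and -0.26 in KK (-0.52 to -0.01, adjusted p = 0.102). The intervals leave room for a fall of up to 0.52 on the log2 scale and for a rise of at most 0.09.

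**Figure D1:**
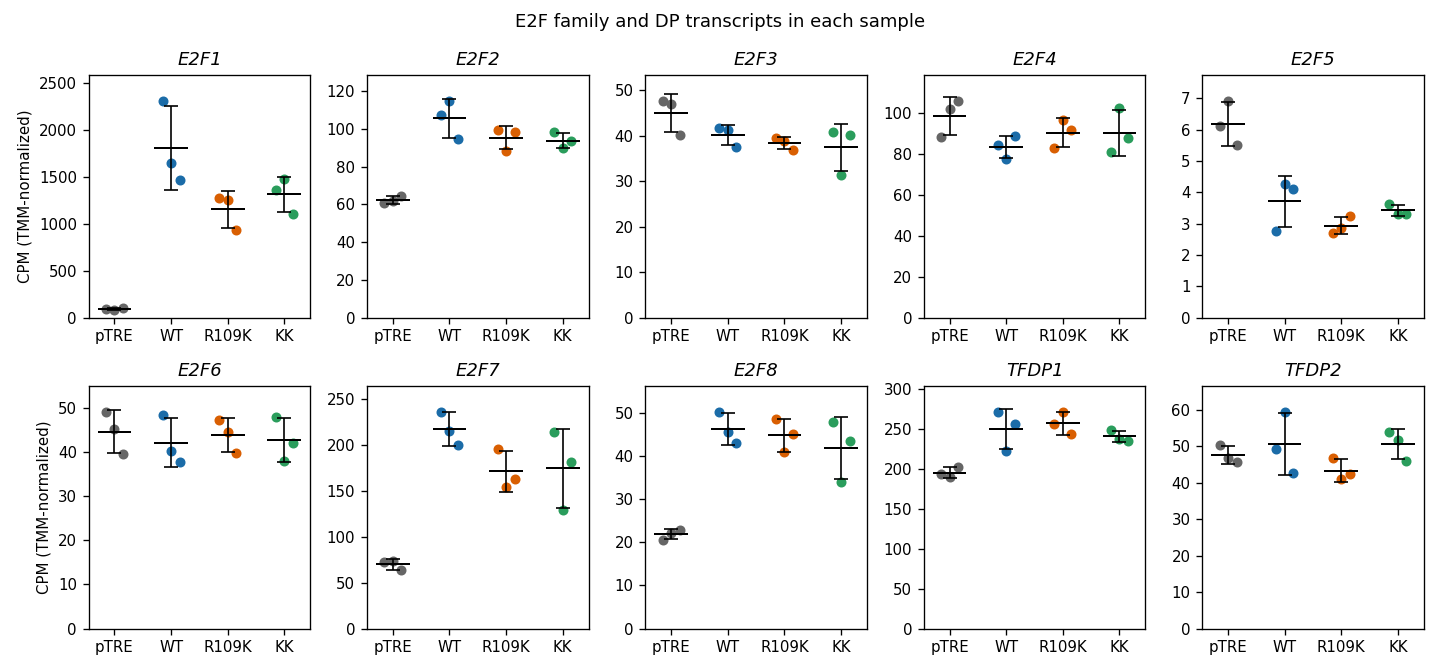
Level of each of the 10 transcripts in the 12 samples, with 1 panel per gene on its own linear axis in TMM-normalized CPM, points for samples, a line for the mean and bars for the SD (n = 3 per line). E2F1, E2F2, E2F7, E2F8 and TFDP1, of which TFDP1 was not called, are higher in every WT, R109K and KK sample than in any pTRE sample. E2F5 is lower, while E2F6 and TFDP2 overlap in all lines.

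Of the repressors, E2F4 was the most abundant per kilobase in pTRE. It was at 88.4, 102 and 106 CPM in pTRE, 84.3, 77.7 and 88.7 in WT, 83.0, 96.7 and 91.8 in R109K, and 80.9, 103 and 87.7 in KK. The groups overlapped in each comparison with pTRE. The log2 fold change was -0.24 in WT (95% interval -0.50 to 0.01, adjusted p = 0.122), -0.13 in R109K (adjusted p = 0.478) and -0.13 in KK (adjusted p = 0.433).

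E2F5, the other pocket protein-bound repressor, was the member with the fewest reads, between 53 and 182 per sample. It was at 6.11, 6.92 and 5.51 CPM in pTRE, and at 2.78, 4.26 and 4.12 CPM in WT. It was at 2.69, 2.87 and 3.23 CPM in R109K and at 3.63, 3.31 and 3.32 CPM in KK. All 9 samples of the E2F1 lines lay below all 3 pTRE samples. E2F5 fell in all 3 lines, with a log2 fold change of -0.75 ± 0.19 in WT (adjusted p = 0.00653), -1.08 ± 0.19 in R109K (adjusted p = 6.66e-04) and -0.85 ± 0.19 in KK (adjusted p = 0.00269). The call in WT was lost without pTRE replicate 1 (adjusted p = 0.0174), without pTRE replicate 2 (adjusted p = 0.0329) and without WT replicate 1 (adjusted p = 0.0334), and the call in KK was lost without pTRE replicate 2 (adjusted p = 0.0168) and without KK replicate 3 (adjusted p = 0.0123). E2F5 (chromosome 8 of GRCh37, 86089389 to 86129387, plus strand) overlaps RBIS and a long noncoding RNA on the opposite strand. Whether strand was used in counting was not given in the sources used here, so without it reads of these genes and of E2F5 cannot be told apart.

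E2F6, which represses as part of a Polycomb complex, lay within the same range in every line. It was at 49.2, 45.3 and 39.6 CPM in pTRE, 48.3, 40.3 and 37.8 in WT, 47.3, 44.6 and 39.8 in R109K, and 48.0, 38.0 and 42.1 in KK. Its log2 fold change was -0.08 in WT (95% interval -0.36 to 0.20, adjusted p = 0.639), -0.03 in R109K (adjusted p = 0.915) and -0.06 in KK (adjusted p = 0.745).

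The atypical members E2F7 and E2F8 had the largest rises after E2F1. E2F7 was at 73.0, 73.9 and 63.5 CPM in pTRE and at 237, 216 and 200.2 in WT, with 196, 154 and 164 in R109K and 215, 129 and 182 in KK. All samples of the E2F1 lines lay above those of pTRE, and within the E2F1 lines KK replicate 2 was the lowest. E2F7 rose by a log2 fold change of 1.63 ± 0.17 in WT (adjusted p = 2.38e-06), 1.29 ± 0.16 in R109K (adjusted p = 3.64e-05) and 1.32 ± 0.16 in KK (adjusted p = 1.74e-05). These are rises of 3.10-fold, 2.44-fold and 2.5-fold.

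E2F8 was at 20.5, 22.2 and 22.7 CPM in pTRE, 50.3, 45.5 and 43.0 in WT, 48.5, 40.8 and 45.0 in R109K, and 47.9, 33.9 and 43.5 in KK. Again no sample of an E2F1 line overlapped with pTRE, and KK replicate 2 was the lowest of the 9. It rose by a log2 fold change of 1.08 ± 0.13 in WT (adjusted p = 1.44e-05), 1.04 ± 0.13 in R109K (adjusted p = 3.71e-05) and 0.94 ± 0.13 in KK (adjusted p = 5.52e-05). E2F8 (chromosome 11 of GRCh37, 19245610 to 19263167, minus strand) overlaps CSRP3-AS1 on the opposite strand, and the same limit holds there.

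Counting only changes that are also greater than 2-fold, 3 members were higher in WT (E2F1, E2F7 and E2F8), 3 in R109K (the same genes, with E2F5 lower) and 2 in KK (E2F1 and E2F7). E2F1 is in each of these counts by design. Over all genes tested, 11.8% passed both thresholds in WT (7.89% higher and 3.93% lower), 7.19% in R109K (4.64% and 2.56%) and 10.9% in KK (7.01% and 3.9%). E2F8 at 1.92-fold in KK and 2.05-fold in R109K lay just on either side of this limit.

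TFDP1, the main DP partner, was at 194, 189.7 and 203 CPM in pTRE, 272, 222 and 257 in WT, 256, 272 and 243 in R109K, and 249, 238 and 236 in KK. The samples of each E2F1 line lay above those of pTRE without overlap, but the change did not pass the threshold. Its log2 fold change was 0.36 ± 0.11 in WT (adjusted p = 0.0165), 0.40 ± 0.11 in R109K (adjusted p = 0.0131) and 0.30 ± 0.11 in KK (adjusted p = 0.0412). It was called in all 3 lines with DESeq2 (adjusted p = 0.00186, 6.22e-04 and 0.00874), and in WT without WT replicate 2 (log2 fold change 0.43, adjusted p = 0.00339).

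TFDP2, which encodes the second DP protein, was at 50.4, 46.7 and 45.7 CPM in pTRE, 49.4, 59.5 and 42.6 in WT, 46.8, 40.9 and 42.3 in R109K, and 53.9, 51.7 and 45.9 in KK. Its log2 fold change was 0.08 in WT (95% interval -0.19 to 0.35, adjusted p = 0.630), -0.13 in R109K (adjusted p = 0.473) and 0.09 in KK (adjusted p = 0.638). The third DP gene, TFDP3, had 1 read in 1 pTRE sample and 3 reads in 1 WT sample and was not tested. Counting samples rather than calls, 5 members lay above pTRE without overlap in each line, E2F1 among them by design. Over all genes tested, 25.2% did so in WT, 24.3% in R109K and 24.9% in KK. Below pTRE without overlap lay 1 member in WT and in KK (E2F5) and 2 in R109K (E2F5 and E2F3), beside 26.3%, 24.5% and 22.9% of all genes. The annotation lists pseudogenes for TFDP1, E2F3, E2F4 and E2F6, so that reads these share with a copy are uncertain.

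**Figure D2:**
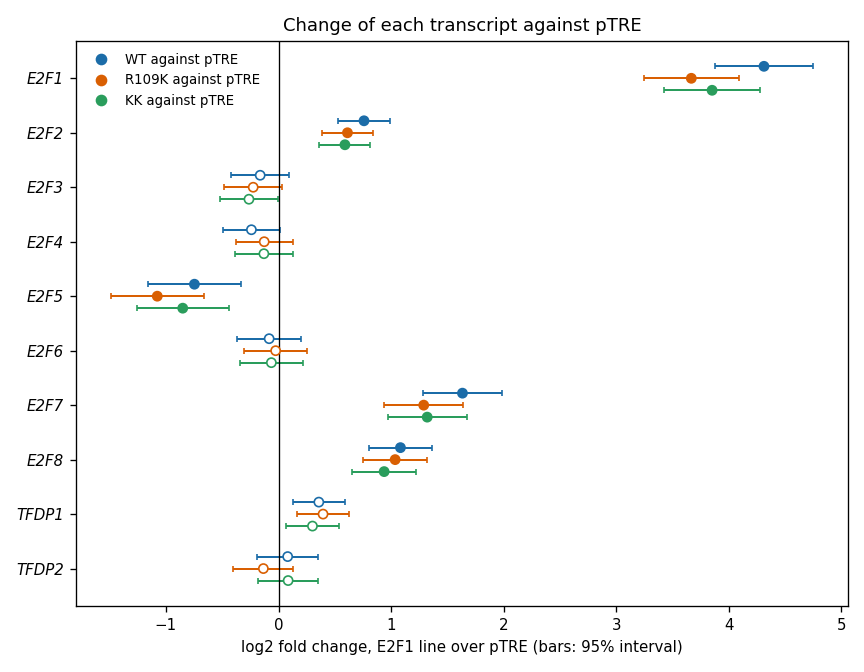
Log2 fold change of each transcript over pTRE in the WT, R109K and KK lines on the horizontal axis, with 95% intervals from the model of 12 samples. Filled points have an adjusted p under 0.01 and open points do not. E2F1 lies between 3.67 and 4.31, E2F7 between 1.29 and 1.63, and E2F5 is the only member called lower.

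The E2F1 lines were next compared with each other, which does not involve pTRE. No member was called in any of the 3 comparisons with edgeR at an adjusted p under 0.01, and 0 were called with DESeq2. At an unadjusted p under 0.05 the counts were 2 for R109K against WT, 1 for KK against WT and 0 for R109K against KK. Over all genes tested, 0.71% were called for R109K against WT, 0.012% for KK against WT and 0.132% for R109K against KK, and 22.3%, 8.51% and 12.4% had an unadjusted p under 0.05. Calls between the lines were few among all genes as well.

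The 2 members under an unadjusted p of 0.05 in R109K against WT were E2F1 and E2F7. E2F1 was lower by a log2 fold change of -0.65 (95% interval -1.02 to -0.27, adjusted p = 0.0577), and E2F7 by -0.34 (95% interval -0.69 to -0.00, adjusted p = 0.223). Both were lower in every R109K sample than in every WT sample, beside 14% of all genes tested. The E2F1 counts take in the construct, so its level and the substitution differ together between these lines. For E2F7 their effects cannot be told apart. In KK against WT the member was E2F1, at -0.46 (95% interval -0.84 to -0.08, adjusted p = 0.574), with overlapping samples, and 0 members were lower without overlap, beside 5.16% of all genes. E2F7 was at -0.31 in that comparison (95% interval -0.66 to 0.03, adjusted p = 0.574). E2F5 was at -0.33 in R109K against WT (95% interval -0.75 to 0.09, adjusted p = 0.327), with overlapping samples, and at -0.10 in KK against WT (95% interval -0.53 to 0.32, adjusted p = 0.853). Between R109K and KK, E2F5 was lower in every R109K sample, with a log2 fold change of -0.23 (95% interval -0.65 to 0.19, adjusted p = 0.737), beside 11.4% of all genes lower without overlap. The intervals for E2F2, E2F3, E2F4, E2F6, E2F8, TFDP1 and TFDP2 between lines all included 0. The bound farthest from 0 among them was -0.49, for TFDP2 in R109K against KK, and the intervals do not show that the lines were equal.

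**Figure D3:**
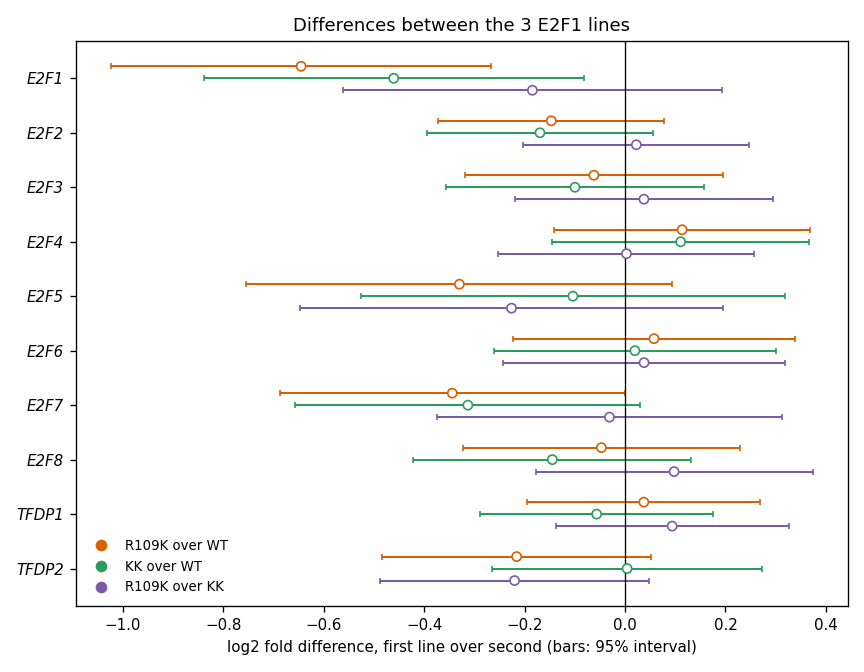
Log2 fold difference of each transcript between the E2F1 lines, R109K over WT, KK over WT and R109K over KK, with 95% intervals. All points are open, as 0 of 10 members had an adjusted p under 0.01, and E2F1 in R109K over WT (-0.65) is the farthest from 0.

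The order of the lines by mean level differed among the members that were called. For E2F1 it ran WT (1811 ± 445 CPM, SD, n = 3), KK (1316 ± 187), R109K (1158 ± 196) and pTRE (91.2 ± 9.43). E2F7 had the same order, at 218 ± 18.3, 175 ± 43.2, 171 ± 22 and 70.1 ± 5.77 CPM. For E2F2 and E2F8, WT came first at 106 ± 10.3 and 46.3 ± 3.70 CPM, followed by R109K at 95.2 ± 6.18 and 44.8 ± 3.85 and KK at 93.7 ± 4.16 and 41.8 ± 7.15. E2F5 was highest in pTRE (6.18 ± 0.705 CPM), then in WT (3.72 ± 0.817), KK (3.42 ± 0.184) and R109K (2.93 ± 0.277). In each of these orders only the step between pTRE and its neighbour was a called difference.

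To compare members with each other, CPM was divided by the length of the merged exons in kilobases. For E2F1 this was the length of the cells' own gene, 2.69 kilobases, in every line. The transcript length of the construct was not given in the sources used here. The size of E2F1's level per kilobase, share and ratios in the E2F1 lines is therefore uncertain. In pTRE, TFDP1 had the highest level, 52.2 ± 1.77 CPM per kilobase (SD, n = 3), followed by E2F1 at 33.9 ± 3.51 and E2F4 at 27.5 ± 2.57. E2F2, E2F7 and E2F6 lay within their spread of each other at 11.4 ± 0.360, 11.2 ± 0.917 and 11 ± 1.19, and E2F3 was at 8.65 ± 0.812. E2F8 was at 5.28 ± 0.280, TFDP2 at 4 ± 0.211 and E2F5 lowest at 1.03 ± 0.118 CPM per kilobase. In WT, E2F1 came first at 673 ± 166, ahead of TFDP1 at 66.9 ± 6.76, and E2F7 at 34.6 ± 2.91 stood above E2F4 at 23.2 ± 1.53 and E2F2 at 19.3 ± 1.88. In R109K and KK, E2F7 was at 27.3 ± 3.50 and 27.8 ± 6.86 and E2F4 at 25.2 ± 1.93 and 25.1 ± 3.08 CPM per kilobase, within the spread of E2F7.

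On this scale, with the same limit on the length of E2F1, it made up 30.8%, 28.3% and 33.4% of the summed E2F1 to E2F8 level in the pTRE samples. It made up 88.4%, 85.2% and 84.3% in WT, 82.1%, 82.9% and 78.0% in R109K, and 82.6%, 86.0% and 80.6% in KK. The E2F1 lines lay above pTRE by 50.2 to 55.1 percentage points. That was set by the design, as the constructs carry E2F1, and no p-value is given for it. Other comparisons used a two-sided exact permutation test of 3 samples against 3, where 0.1 is the smallest p possible. R109K lay below WT without overlap, by -4.96 percentage points (exact permutation p = 0.1), and KK overlapped with both (p = 0.3 against WT and p = 0.5 against R109K, exact permutation tests).

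The other 7 E2F transcripts together, E2F2 to E2F8, summed to 76.0 ± 1.90 CPM per kilobase in pTRE, 107 ± 5.96 in WT, 99.4 ± 3.98 in R109K and 98.5 ± 8.45 in KK (SD, n = 3 each). This is 1.41, 1.31 and 1.30 times the pTRE mean. E2F7 and E2F8 made up 21.6% ± 0.795 of that sum in pTRE, 42.7% ± 1.16 in WT, 38.3% ± 2.84 in R109K and 38.2% ± 5.58 in KK. This share was not among the planned measures. As both genes were called higher in these same samples, it is a description, and no p-value is given for it. The DP transcripts, TFDP1 and TFDP2, summed to 56.2 ± 1.70 CPM per kilobase in pTRE and to 71.1 ± 6.24, 72.3 ± 3.71 and 68.6 ± 2.20 in WT, R109K and KK, 1.27, 1.29 and 1.22 times the pTRE mean (exact permutation p = 0.1 in each comparison, adjusted p = 0.2). The level of E2F1 to E2F6, the members that pair with DP, was 1.66 ± 0.0305 times that of the DP transcripts in pTRE, 10.3 ± 1.83 times in WT, 6.79 ± 0.766 times in R109K and 8.02 ± 0.952 times in KK. E2F1 stood at 2.07 ± 0.316 times the sum of E2F7 and E2F8 in pTRE and at 14.6 ± 2.36, 11.4 ± 2.12 and 13.6 ± 4.83 times in WT, R109K and KK. Both ratios count the construct's E2F1 with the cells' own, so their rise over pTRE was set by the design too.

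**Figure D4:**
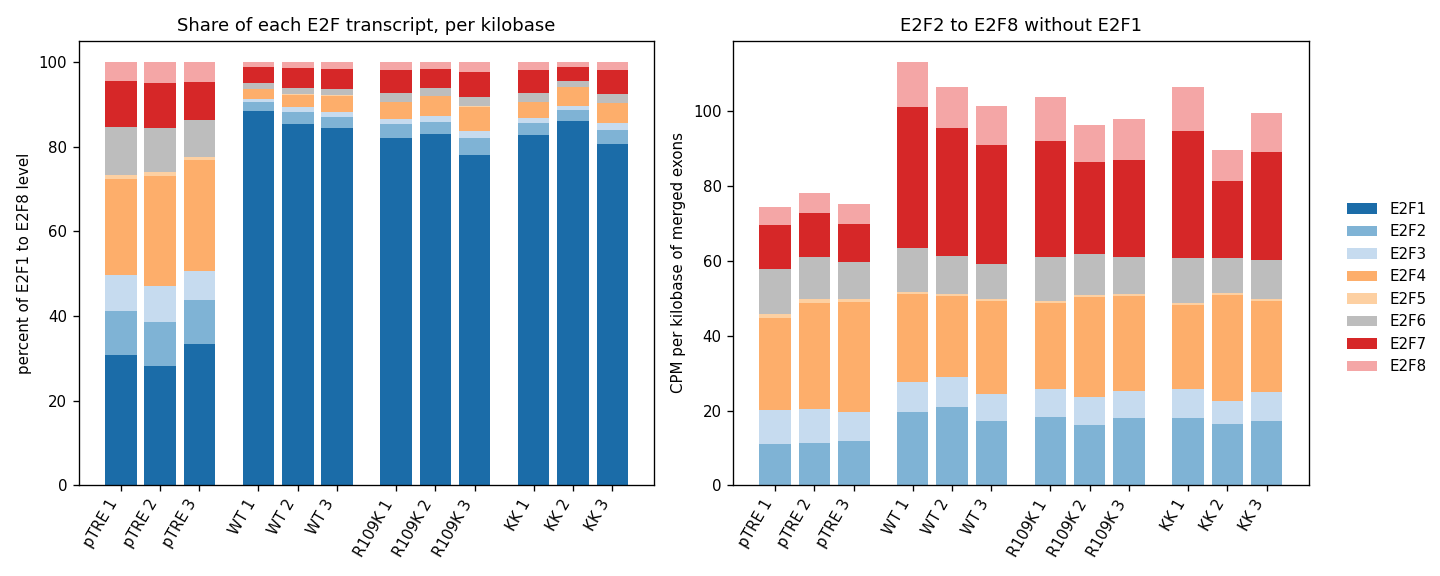
Left, the share of each E2F transcript in the summed E2F1 to E2F8 level of each sample, in percent, from CPM per kilobase of merged exons. Right, the levels of E2F2 to E2F8 alone in CPM per kilobase, where the stacked bars reach 74.5 to 78.1 in pTRE and 89.6 to 113 in the E2F1 lines and the part of E2F7 widens most.

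Genes that act with, on or downstream of the E2F proteins were read from 5 lists. Their counts stand beside 14.8% of all genes tested called higher and 11.4% lower in WT, 10% and 7.23% in R109K, and 13.8% and 10.7% in KK, and their medians beside -0.01 to 0.00 over all genes tested. Of 10 pocket protein and MuvB genes, 2 were called higher and 0 lower in WT. LIN54, a DNA-binding subunit of the MuvB complex, had a log2 fold change of 1.41 ± 0.13 in WT (adjusted p = 9.87e-07), 0.91 in R109K and 1.13 in KK, all called. RB1, which encodes the retinoblastoma protein, was at 0.84 ± 0.20 in WT (adjusted p = 0.00397), 0.58 in R109K (adjusted p = 0.0399) and 0.67 in KK (adjusted p = 0.0159). In R109K 2 genes were higher and 0 lower, and in KK 1 was higher and 1 lower. The list's median log2 fold change was 0.15 in WT, 0.10 in R109K and 0.03 in KK. With 10 genes, these counts lie near the shares over all genes.

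Of the 17 cyclin, CDK and CDK inhibitor genes, which lie upstream of the pocket proteins, 14 were tested. In WT 8 were called higher and 1 lower, in R109K 8 and 1, and in KK 9 and 2. Their median log2 fold change was 0.78 in WT, 0.86 in R109K and 0.85 in KK. CCNE2, a cyclin that activates CDK2 and a known E2F target, rose by 2.24 ± 0.17 in WT (adjusted p = 1.07e-07), 2.06 in R109K and 2.16 in KK on the log2 scale. CCND3, a D-type cyclin, rose by 2.08 ± 0.16, 1.75 and 2.20. The other D-type cyclins, named after their values were seen, went the other way. CCND1 was at -0.48, -0.64 and -0.47, called lower in each line. CCND2 was at -0.50, -0.25 and -0.69, called lower in KK alone. CDKN2C, an inhibitor of CDK4 and CDK6, rose by 1.95 ± 0.17, 2.02 and 2.14. CDKN1C, an inhibitor of the CIP/KIP family, rose by 1.87 ± 0.26 in WT (adjusted p = 4.46e-05) and 1.78 in KK (adjusted p = 6.94e-05), with 0.97 in R109K (adjusted p = 0.0106).

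Of 10 partners of the E2F6 complex, 1 was higher and 1 lower in WT, and 1 was higher and 0 lower in both R109K and KK, counts near the shares over all genes. YAF2, a binding partner of the RING1 proteins, was at 0.91 ± 0.16 in WT (adjusted p = 3.08e-04), 0.49 in R109K (adjusted p = 0.0284) and 0.75 in KK (adjusted p = 0.00146). RING1, a Polycomb ubiquitin ligase, was at -0.70 ± 0.16 in WT (adjusted p = 0.00315), -0.37 in R109K (adjusted p = 0.102) and -0.54 in KK (adjusted p = 0.0166). The list's median log2 fold change was 0.18 in WT, 0.18 in R109K and 0.15 in KK.

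Of 7 genes for the turnover of E2F proteins, 2 rose and 1 fell in each line, with medians of 0.01, 0.20 and 0.12. CCNF, the F-box protein cyclin F, rose by 1.2 ± 0.12 in WT, 1.11 in R109K and 1.13 in KK. SKP2, an F-box protein of the SCF ubiquitin ligase, rose by 1.07 ± 0.12, 1.25 and 1.19. CUL1, the scaffold of that ligase, was at -0.94 ± 0.10, -0.81 and -0.87. The adjusted p of these 3 genes was at most 2.11e-05 in any line.

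Textbook E2F targets did not move in 1 direction. Of 25, 6 were called higher and 5 lower in WT, beside 14.8% and 11.4% of all genes. The counts were 9 and 2 in R109K, beside 10% and 7.23%, and 7 and 6 in KK, beside 13.8% and 10.7%, with median log2 fold changes of 0.18, 0.20 and 0.09. TP73, a p53 relative, rose by 2.5 ± 0.15 in WT, 2.34 in R109K and 2.53 in KK. RRM2, a ribonucleotide reductase subunit, rose by 2.37 ± 0.14, 2.28 and 2.39. APAF1, a caspase activator of apoptosis, rose by 1.39 ± 0.20, 0.80 and 1.01, and CDC25A, a phosphatase that activates CDKs, by 1.00 ± 0.11, 0.74 and 0.92. The 5 targets lower in WT, named after their values were seen, were ORC1 (-0.49), MCM3 (-0.54), MCM5 (-0.91) and MCM6 (-0.88), which license replication origins, and TK1 (-0.94), thymidine kinase. All 5 were called lower in KK as well. In R109K, MCM5 (-0.92) and MCM6 (-0.63) were called lower, whereas ORC1 (-0.36), MCM3 (-0.35) and TK1 (-0.34) were not called. Between the E2F1 lines, 0 genes of the 5 lists were called with edgeR, and 1 with DESeq2, for R109K against WT.

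**Figure D5:**
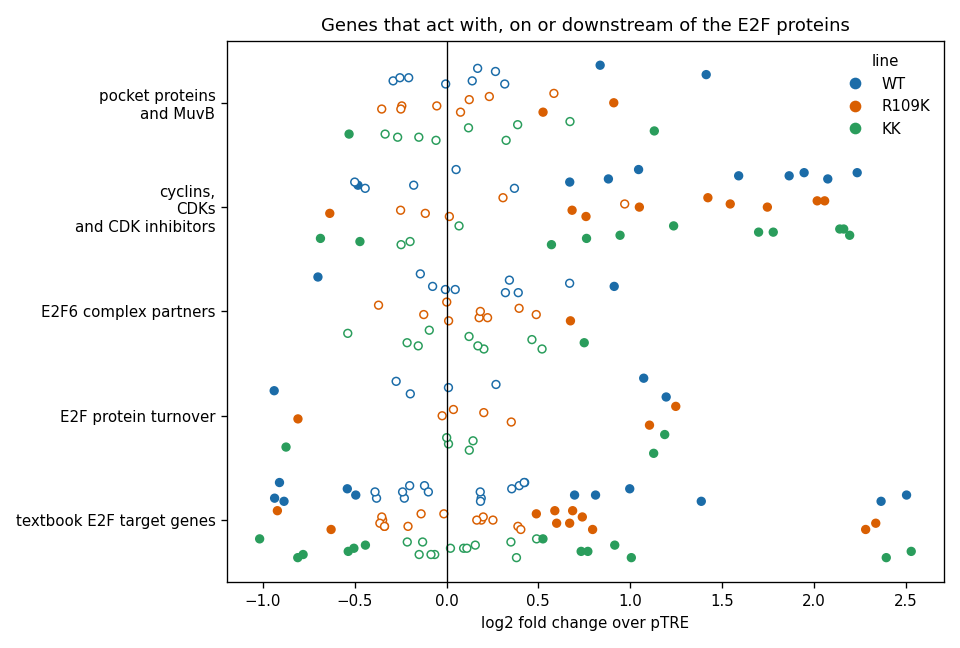
Log2 fold change over pTRE in the WT, R109K and KK lines for the tested genes of 5 lists, 1 point per gene and line, filled where the adjusted p is under 0.01 and open where it is not. The cyclin, CDK and CDK inhibitor list has a median of 0.78 to 0.86 in the 3 lines, and the textbook targets, with medians of 0.09 to 0.20, have filled points on both sides of 0.

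The transcripts whose pattern was most like that of a member were found by Pearson's r of log2 CPM over the 12 samples, which fall into pTRE and the induced lines. The values are a description, as every gene that differs between pTRE and the E2F1 lines shares that step. E2F1 was most like RNF19B (r = 0.993), FCHO1 (0.991) and ZDHHC22 (0.990). E2F2 was most like PKNOX1 (r = 0.990), LOC643201 and AUNIP. E2F7 was most like ZBTB21 (r = 0.993), JADE3 and OTUD3, and E2F8 most like NCAPG2 (0.989), RFXAP and NCAPD3, where NCAPG2 and NCAPD3 encode condensin II subunits. E2F5 was most like FBXL2 (r = 0.959), TRIM4 and TMEM260. TFDP1 was most like CDKN1B (0.969), EED and IDI1. E2F3 came closest to EPS15 (0.954), MAPK14 and CPNE8, E2F4 to ZDHHC16 (0.951), HMOX2 and ETHE1, E2F6 to TAF9B (0.938), ZFAND5 and IMPA1, and TFDP2 to RYR3 (0.853), DGKG and FAM66C. Among the members themselves, the highest r was 0.978, between E2F7 and E2F8, followed by 0.965 for E2F2 and E2F8 and 0.962 for E2F2 and E2F7, and E2F5 and TFDP1 were at -0.924.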

How the data were processed

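The samples were grouped by the line named in their labels. The authors deposited whole-number counts of reads per gene, which according to the submitters' processing notes came after trimming with Trim Galore 0.4.3 and alignment to hg19 with STAR 2.5.1. The annotation version and the strand setting of the counting are not given in the sources used here. The 5 closing summary rows of each count list, for reads not counted on a gene, were left out of library sizes and held 34.3% to 68.8% of the reads.

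Testing used edgeR 4.0.16 (R 4.3.3), with TMM normalization, filterByExpr on the 4 lines, and glmQLFit and glmQLFTest in 1 model of all 12 samples. The study's methods used DESeq2, which is an alternative here (version 1.42.0), as are RLE normalization, other filters, only the 6 samples compared, a replicate block, samples left out in turn and other lengths. The fit was tested on simulated data with known changes. Sums, shares and exact permutation tests used Python 3.11.15 with scipy 1.17.1. Gene positions and exon lengths came from the GENCODE annotation of GRCh37 and promoters from RefSeq. Log2 CPM of single samples used a prior count of 2.

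Genes named are the 10 members, the 3 genes most like each by Pearson's r among tested genes averaging at least 50 counts, and from each list up to 4 called genes with the largest change in WT. Genes marked as named after their values were seen come in addition to these. The members and lists were chosen with earlier results of these data known, and no p-value is adjusted over a list alone. After the line means were removed, the 18 pairs of samples from different lines that share a replicate number correlated at 0.0727 on average (-0.471 to 0.722), beside -0.0390 over 36 pairs with different numbers. As the labels name no shared culture or day, the number was left out of the main model and used as a block in an alternative.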

Additional observations from a re-analysis of the deposited data

How the results depend on the processing

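The sizes of group differences rest on 3 samples per line and 1 line per construct, and E2F5 on the fewest reads. With the replicate number as a block, all 10 members kept their side of the threshold in all 6 comparisons, with 4 members higher and 1 lower in each comparison with pTRE and 0 between lines. Of the 12 samples, 8 were closest to a same-numbered sample of another line, a hint from the data of something shared by number, while single pairs ran from -0.471 to 0.722. Members called lower were 0 in WT with only the 6 samples compared (E2F5, adjusted p = 0.0317), and 0 to 1 in WT and in KK with each sample left out. Requiring over 2-fold as well left 0 lower in WT and in KK and 2 higher in KK. The pathway lists had 8 genes lower in WT, and 5 with only the 6 samples compared. They had 4 lower in R109K, and 8 with DESeq2. For KK there were 10, and 6 to 10 with each sample left out, the lowest without pTRE replicate 2. Between R109K and WT, 0 were lower, and 1 with DESeq2. Without division by length, E2F1 made up 20.7% of the E2F1 to E2F8 level in pTRE, 76.6% in WT, 70.1% in R109K and 72.9% in KK, and with the longest transcript as length 27.1% in pTRE, while the sum of E2F2 to E2F8 was 1.55 times the pTRE mean in WT and 1.40 times in R109K without length. TFDP1 was also called in R109K with at least 10 counts in every sample (adjusted p = 0.00908) and with only the 6 samples compared (adjusted p = 0.00553). The values that turned direction lay near 0. They were TFDP2 in KK against WT with at least 10 counts in every sample (-0.00403), and E2F4 in R109K against KK with DESeq2 (-0.00272), RLE (-0.00393) and at least 10 counts (-0.000831). With each sample left out, the log2 fold change crossed 0 for TFDP2 in WT (-0.0507 to 0.176) and for E2F6 in R109K (-0.107 to 0.0472) and KK (-0.157 to 0.012), each against pTRE. In R109K against WT it did so for E2F6 (-0.0108 to 0.174), E2F8 (-0.105 to 0.0218) and TFDP1 (-0.0442 to 0.104), and in KK against WT for E2F3 (-0.156 to 0.0132), E2F5 (-0.281 to 0.0101), E2F6 (-0.0642 to 0.14), TFDP1 (-0.134 to 0.0135) and TFDP2 (-0.0929 to 0.134). In R109K against KK it did so for E2F2 (-0.0105 to 0.0763), E2F3 (-0.0716 to 0.0969), E2F4 (-0.0778 to 0.104), E2F6 (-0.0373 to 0.124), E2F7 (-0.208 to 0.136) and E2F8 (-0.0293 to 0.201). By Spearman's rho, the genes most like a member lay between 0.727 and 0.972. The cause of these shifts was not tested.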

Other observations

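Among the 9 induced samples alone, added after seeing the data, the level of E2F1 was compared with that of each other member (9 relations, exact permutation tests over samples). Samples were permuted freely across the lines, so these p-values do not separate differences between lines from relations within them. The largest r was that of E2F7, at 0.503 (exact p = 0.167, adjusted p = 0.538, Spearman's rho 0.583, exact p = 0.108, adjusted p = 0.486). Without the 2 samples farthest from the median E2F1 level, WT replicate 1 and R109K replicate 3, r was 0.139, and with the line means removed it was 0.0915. E2F2 had an r of 0.494 (exact p = 0.176, adjusted p = 0.538, rho 0.417, exact p = 0.270), which was 0.551 without those samples and 0.0808 within lines. TFDP2 had an r of 0.490 (exact p = 0.179, adjusted p = 0.538, rho 0.683, exact p = 0.0503, adjusted p = 0.453). With the line means removed, the 9 values of r ran from -0.784 for E2F5 to 0.648 for E2F6, with 0.565 for TFDP1 and 0.328 for TFDP2, and no test was made of these. E2F6 was highest in replicate 1 of every line, so its value cannot be told apart from something shared by replicate number. The r of E2F5 was 0.0102 over the 9 samples (exact p = 0.980, adjusted p = 0.980) and 0.660 without the same 2 samples. Over these samples, none of the relations passed the correction over the 9 relations.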
